A study of Mus musculus with 70 samples.

Results

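The 8 genes described here encode myeloid immune receptors of 2 related groups: the CD300 receptors Cd300lf, Cd300a, Cd300e, Cd300lb and Cd300ld, and the leukocyte immunoglobulin-like receptors Pirb, Lilrb4a and Lilra5. They are 8 of the 52636 genes in a count table of leukocytes sorted from mouse blood, found by matching Ensembl identifiers to GENCODE M21 symbols. The genes were chosen from values measured in these same libraries: at least Cd300lf was picked for its difference between stressed and unstressed Ly6C-high monocytes, and the cell type pattern of the others was known. The levels across cell types and all values from Ly6C-high monocytes are therefore a description: fitted differences and counts of genes past thresholds are given for Ly6C-high monocytes, no p-value is printed for a gene there, and none of these counts is used as support.

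All mice were young adult male C57BL/6J mice. SUS and RES mice went through chronic social defeat stress (CSDS) for 10 days, in which a mouse is exposed daily to physical attack by an aggressive CD-1 male and otherwise lives beside it behind a perforated divider. A social interaction test then split the stressed mice into susceptible (SUS) mice, which avoid another mouse, and resilient (RES) mice, which do not, while unstressed CON mice were housed in pairs across a divider. Trunk blood was freed of red cells by lysis, and 4 leukocyte types (Ly6high and Ly6low monocytes, Bcells and Tcells in the labels, with the monocytes written here as Ly6C-high and Ly6C-low) were sorted on CD11b, Ly6C, Ly6G, B220 and CD90.2. The groups are models within limits: SUS and RES were defined by behaviour after the stress, and no label ties a library to an animal, so it is not known which libraries of different types came from 1 mouse.

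CD300 and leukocyte immunoglobulin-like receptors are paired receptors, families in which inhibitory and activating members with similar outer domains are encoded side by side. Inhibitory members carry tyrosine motifs in their tails that recruit the phosphatases SHP-1 (Ptpn6), SHP-2 (Ptpn11) and SHIP-1 (Inpp5d). Activating members have short tails and signal through the adaptors DAP12 (Tyrobp) or the Fc receptor gamma chain (Fcer1g), which engage the kinase Syk. Several CD300 receptors bind lipids exposed on dying cells, and PIR-B, the product of Pirb, binds MHC class I, so that these receptors set the threshold at which monocytes and granulocytes respond.

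The table held 70 libraries. Every cell type had 6 libraries each of CON, SUS and RES mice, except Ly6C-low monocytes with 4 CON libraries. Library 52, labelled B cells of a RES mouse, held 412 CPM of the T cell gene Cd3e and 5.76 CPM of the B cell gene Cd79a (CPM, counts scaled to a common library total, with TMM). Library 70, labelled T cells of a RES mouse, held 0.143 CPM of Cd3e and 1417 CPM of Cd79a. Both go against their labels and were left out, so that 68 libraries remained, with 5 RES libraries each for B and T cells. Their counts ranged from 19769835 to 67038231 with a median of 37105583.5, and 0 of 171 pairs within groups were identical. The source label of the samples says brain, whereas the design text and the methods describe blood. The summed level of 6 Ly6C-high monocyte markers was 6589 to 13590 CPM in Ly6C-high and 193 to 589 CPM in Ly6C-low libraries, and that of 6 Ly6C-low monocyte markers was 764 to 1773 and 5743 to 7771 CPM, in the same order. B cell libraries held 4967 to 6330 CPM of 6 B cell markers, and T cell libraries 1951 to 2572 CPM of 6 T cell markers. Ly6C-low libraries also held the natural killer list, at 259 to 1412 CPM over 5 genes.

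The 5 CD300 genes lie within 1 cluster on chromosome 11 (GRCm38). Cd300lf spans chr11:115116214-115133992 on the minus strand, Cd300ld chr11:114982274-114989922 and Cd300lb chr11:114922781-114934386 on the same strand, Cd300e chr11:115051917-115062177 also on minus, and Cd300a chr11:114890041-114904654 on plus. Pirb (chr7:3711409-3720391, minus strand) and Lilra5 (chr7:4237754-4243463, plus strand) are on chromosome 7, and Lilrb4a (chr10:51490956-51496611, plus strand) is on chromosome 10. All are annotated as protein-coding.

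The 250 bases before the RefSeq start are shown for 4 genes (RefSeq, GRCm38.p6): the 3 whose level was higher in stressed Ly6C-high monocytes (Cd300lf, Pirb, Cd300ld) and Cd300e, which was at or near 0 in Ly6C-high and high in Ly6C-low monocytes. Capitals mark GAGGAA or its reverse complement TTCCTC, letters bound by PU.1, a transcription factor of the ETS family that myeloid cells need. The motif was chosen with the data known. RefSeq windows matched 7 of the 8 genes, not Lilrb4a.
Cd300lf, chr11:115133993-115134242, minus strand: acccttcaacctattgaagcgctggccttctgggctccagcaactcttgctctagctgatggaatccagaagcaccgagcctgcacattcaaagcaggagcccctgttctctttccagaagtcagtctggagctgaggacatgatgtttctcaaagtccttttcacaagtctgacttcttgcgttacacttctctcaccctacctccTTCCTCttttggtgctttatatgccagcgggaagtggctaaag
Pirb, chr7:3720383-3720632, minus strand: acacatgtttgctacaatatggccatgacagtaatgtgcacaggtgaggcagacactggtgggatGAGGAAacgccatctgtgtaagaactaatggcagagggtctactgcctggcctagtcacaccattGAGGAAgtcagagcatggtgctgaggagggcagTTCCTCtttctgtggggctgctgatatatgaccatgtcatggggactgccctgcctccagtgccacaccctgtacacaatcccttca
Cd300ld, chr11:114989887-114990136, minus strand: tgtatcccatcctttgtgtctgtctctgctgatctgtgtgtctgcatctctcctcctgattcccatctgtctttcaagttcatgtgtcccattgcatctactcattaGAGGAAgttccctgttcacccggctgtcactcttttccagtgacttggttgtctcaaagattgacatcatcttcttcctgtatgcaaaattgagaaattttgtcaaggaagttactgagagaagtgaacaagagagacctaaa
Cd300e, chr11:115062040-115062289, minus strand: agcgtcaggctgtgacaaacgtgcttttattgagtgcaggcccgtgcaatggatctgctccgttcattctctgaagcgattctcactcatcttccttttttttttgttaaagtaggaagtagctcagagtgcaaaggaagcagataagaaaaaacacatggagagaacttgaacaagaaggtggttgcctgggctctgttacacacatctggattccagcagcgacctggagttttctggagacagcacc
RefSeq starts differ from the GENCODE gene ends given above. By the GENCODE coordinates, 138 of the 250 bases shown for Cd300e lie inside the gene, as do 36 for Cd300ld and 9 for Pirb, and 0 for Cd300lf. On either strand, the 6 letters are found in 7601 of 32536 such windows (23.4%), so a match is common. Pirb held 3 matches, starting 185, 120 and 87 bases before the RefSeq start, Cd300lf held 1 starting 43 bases before it and Cd300ld 1 starting 143 bases before it. Cd300a and Lilra5 held 1 each. These letters are not in the windows of Cd300e and Cd300lb. A match is a description of the letters and not a measured binding site, and shorter forms such as GGAA were not searched.

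Across cell types, the 8 genes were monocyte genes and fell into 2 patterns. Cd300lf, Cd300a, Cd300lb, Pirb and Lilrb4a were high in both monocyte types, whereas Cd300e and Lilra5 were high in Ly6C-low monocytes and near 0 elsewhere, with Cd300ld between these patterns. Values in this paragraph are means ± SD over all libraries of a cell type, regardless of stress. Cd300e, an activating receptor of monocytes, was at 386 ± 71.8 CPM in Ly6C-low (n = 16) and 0.467 ± 0.479 CPM in Ly6C-high monocytes (n = 18), and its lowest Ly6C-low library (273 CPM) lay above its highest Ly6C-high library (1.57 CPM). Lilra5, an activating receptor that pairs with the Fc receptor gamma chain, averaged 90.2 ± 14.4 CPM in Ly6C-low against 0.991 ± 0.729 CPM in Ly6C-high monocytes. Cd300ld, another activating member, was at 513 ± 72.3 CPM in Ly6C-low and 81.1 ± 24.2 CPM in Ly6C-high monocytes, again without overlap. The inhibitory receptor Pirb had the opposite order, with 636 ± 149 CPM in Ly6C-high and 283 ± 49.1 CPM in Ly6C-low monocytes. Its lowest Ly6C-high library (438.0 CPM) lay above its highest Ly6C-low library (418 CPM). Lilrb4a, an inhibitory receptor also known as gp49B, was at 158 ± 80.4 CPM in Ly6C-high and 90.5 ± 23.7 CPM in Ly6C-low monocytes, and here the ranges overlapped. The ranges of the 2 monocyte types also overlapped for Cd300lb, an activating receptor that couples to DAP12 (167 ± 26.0 and 131 ± 15.9 CPM), for Cd300a, an inhibitory receptor for phosphatidylserine and phosphatidylethanolamine (390.0 ± 60.5 and 445 ± 48.4 CPM), and for Cd300lf (58.0 ± 38.9 and 60.9 ± 29.1 CPM).

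In lymphocytes, Pirb was the exception. It was at 43.1 ± 6.48 CPM in B cells (n = 17), with 698 to 2126 counts in every library, whereas the mean of each other gene in B cells was at most 1.73 CPM, the value of Cd300lf. In T cells (n = 17), the means ranged from 0.278 CPM for Lilra5 to 3.80 CPM for Pirb. The medians lay lower, at 0 CPM for Lilra5, 0.0719 CPM for Cd300ld and 1.03 CPM for Pirb. A count of 0 allowed a level of up to 0.0713 to 0.0995 CPM in the B cell and 0.0639 to 0.11 CPM in the T cell libraries (3 counts of the library total, counting error only). The left-out libraries followed their markers, with Pirb at 0.567 CPM in library 52 and 59.7 CPM in library 70.

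**Figure D1:**
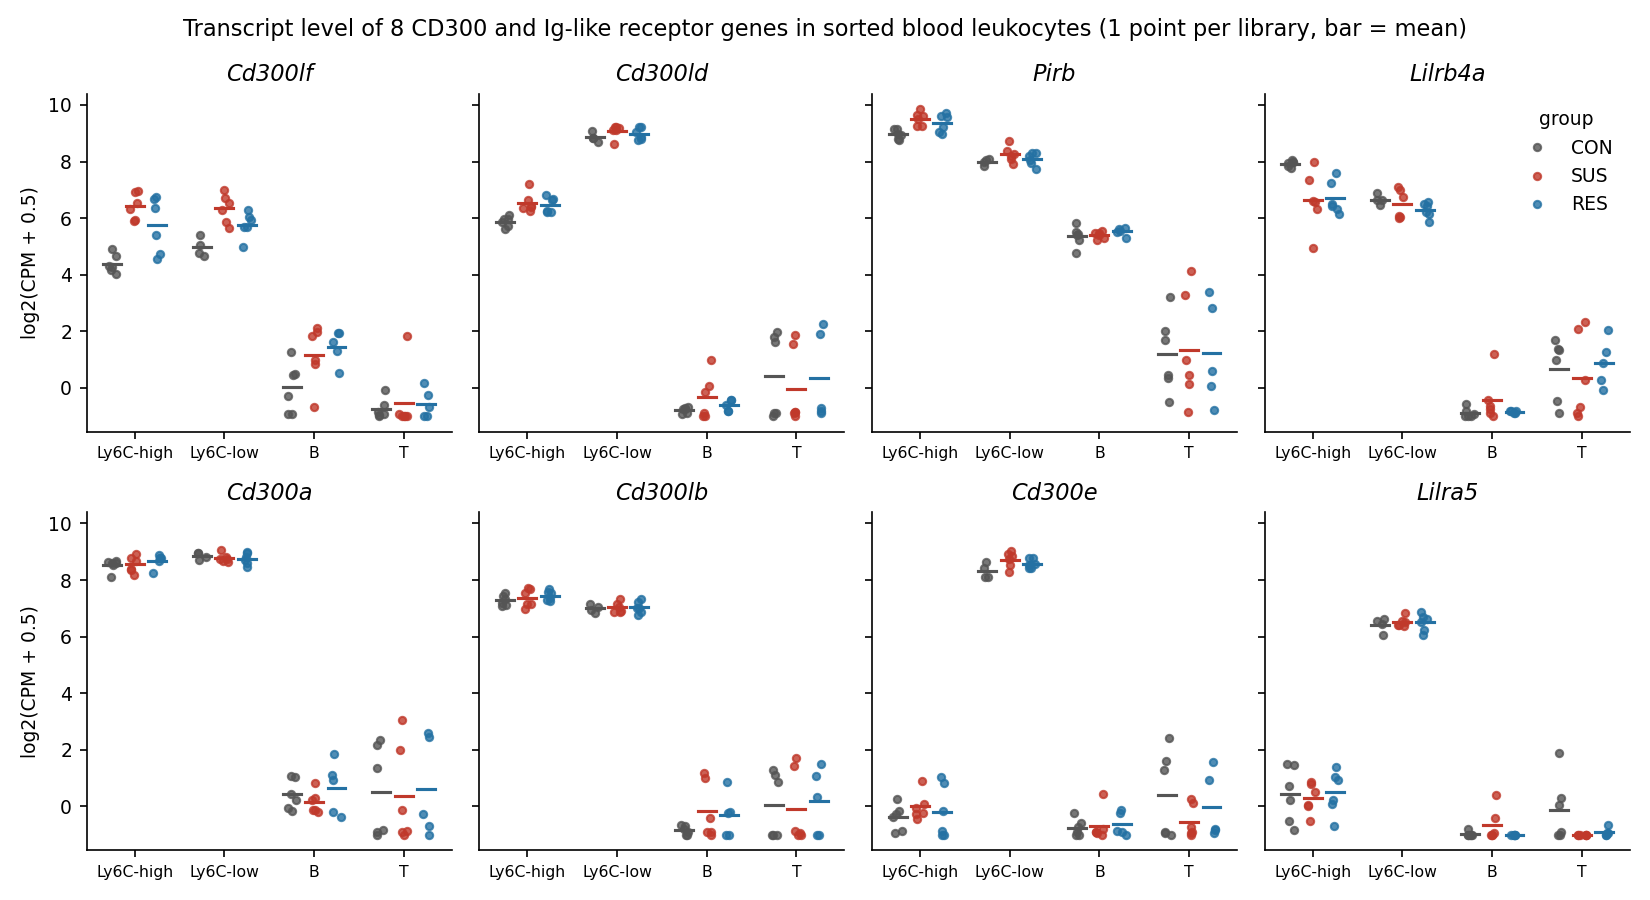
Level of each gene in every library, as log2 of CPM plus 0.5, by sorted cell type and stress group (CON grey, SUS red, RES blue), with each point 1 library and each bar the mean of the log2 values. Cd300e and Lilra5 are high in Ly6C-low monocytes, Pirb is the gene found in B cells, and Cd300lf stands higher in SUS than CON libraries in both monocyte types.

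Compared per kilobase of exon, which allows a comparison between genes, the order differed between the monocyte types. In Ly6C-high monocytes, Pirb was highest at 142 CPM per kb, followed by Cd300a (82.3), Cd300lb (57.1), Cd300ld (30.7), Lilrb4a (30.3) and Cd300lf (11.3), with Lilra5 (0.470) and Cd300e (0.224) last. In Ly6C-low monocytes, the activating members Cd300ld (194 CPM per kb) and Cd300e (185) came first, followed by Cd300a (94.0), Pirb (63.3), Cd300lb (44.9), Lilra5 (42.8), Lilrb4a (17.3) and Cd300lf (11.8). The library ranges of most neighbours in this order overlapped. Those that lay apart were Cd300lf and Lilra5 in Ly6C-high monocytes, and Cd300e and Cd300a as well as Lilra5 and Lilrb4a in Ly6C-low monocytes.

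**Figure D2:**
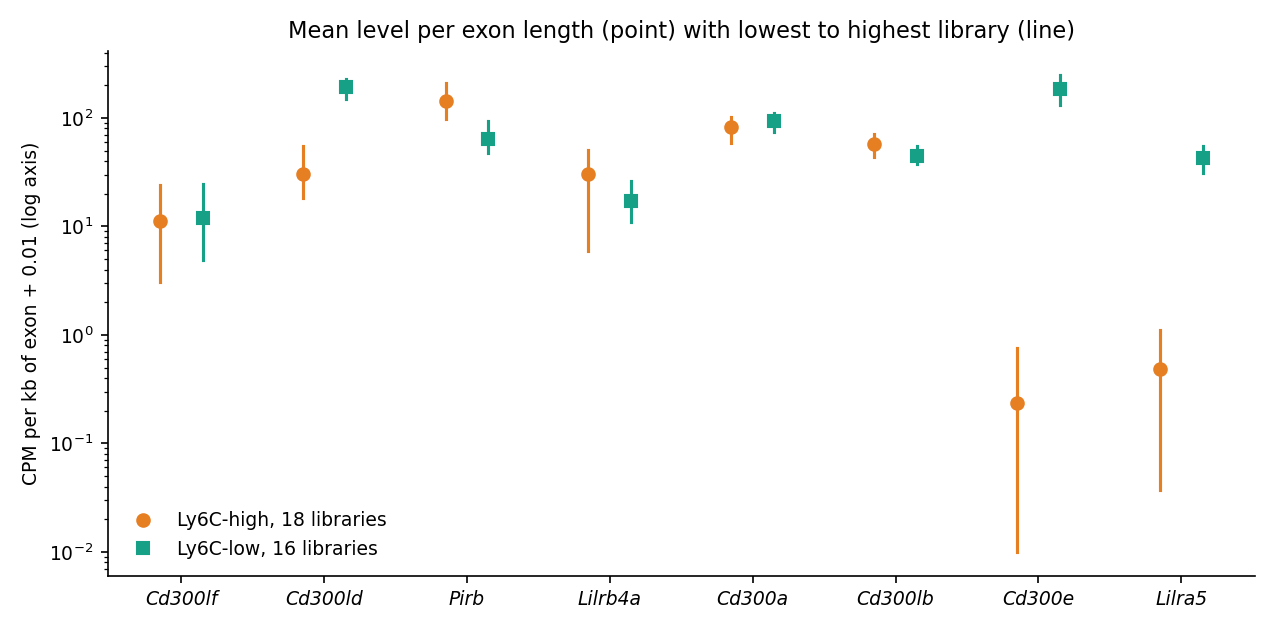
Mean CPM per kilobase of exon (log axis, 0.01 added) of each gene in the 18 Ly6C-high (orange circles) and 16 Ly6C-low (green squares) libraries, with lines from the lowest to the highest library. Pirb is highest in Ly6C-high monocytes, and Cd300ld and Cd300e in Ly6C-low monocytes, where Cd300e reaches 185 against 0.224 in Ly6C-high monocytes.

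Some of these levels rest on sequence that other genes share. Of the 50-base stretches of the Pirb transcripts, 33.97% also occur in transcripts of other genes, most of them in Gm14548 (17.66%). For Lilrb4a this share was 46.69%, most of it with Gm49339 (33.68%), an annotated gene on the same strand whose exons contain 971 of the 1010 coding bases of Lilrb4a and which had 0 or 1 counts in every library. For Cd300lf, Cd300a and Cd300ld the share was 2.29 to 3.89%, and for Cd300e, Cd300lb and Lilra5 it was 0. How the counting treated reads that fit 2 genes is not given in the sources used here, and its effect on Pirb and Lilrb4a was not tested.

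In Ly6C-high monocytes, the inhibitory receptor Cd300lf was higher in both stressed groups, Pirb and the activating Cd300ld were higher by less, and Lilrb4a was lower. Against CON mice, 2 of the 8 genes passed an adjusted p under 0.05 with an absolute log2 fold change above 1 in SUS mice (edgeR quasi-likelihood), where 3.45% of the 16955 genes tested passed. They were Cd300lf, which was higher, and Lilrb4a, which was lower. In RES mice 2 passed, Cd300lf higher and Lilrb4a lower, where 0.997% of all genes did. Since the genes were chosen with this contrast known, nothing is read from these counts. The median log2 fold change of the 8 genes was 0.30 in SUS and 0.28 in RES mice, beside -0.05 and -0.03 over all genes tested. In every cell type, these comparisons share the CON libraries.

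Cd300lf (ENSMUSG00000047798), also called CLM-1, binds ceramide and phosphatidylserine and is the cell entry receptor of murine norovirus. Its level was 15.9, 19.3 and 29.3 CPM in the lowest, median and highest CON library, at 58.8, 86.0 and 125 CPM in SUS mice and at 22.9, 61.7 and 107 CPM in RES mice (6 libraries each). Every SUS library lay above every CON library, and 4 of 6 RES libraries did. The log2 fold change was 2.06 (standard error 0.32) in SUS and 1.58 (0.31) in RES mice, and 0.48 (0.31) between SUS and RES mice. The RES libraries lay apart from each other, from 81.0 to 107 CPM in libraries 9, 15 and 18, and from 22.9 to 42.3 CPM in libraries 3, 6 and 12.

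Pirb (ENSMUSG00000058818), an inhibitory receptor for MHC class I, had CPM of 438.0, 492 and 572 in the lowest, median and highest CON library, 604, 750 and 929 in SUS libraries and 505, 676 and 843 in RES libraries. SUS did not overlap CON, while 4 of 6 RES libraries exceeded all CON values. Its log2 fold change was 0.52 (standard error 0.14) in SUS and 0.40 (0.14) in RES mice. Cd300ld (ENSMUSG00000034641) had CPM of 48.6, 59.7 and 68.7 in CON, 75.6, 84.5 and 147 in SUS and 73.4, 87.8 and 111 in RES libraries, and neither stressed group overlapped CON. Its log2 fold change was 0.67 (0.15) in SUS and 0.60 (0.15) in RES mice. Among the RES libraries, 9, 15 and 18 held the 3 highest values of Cd300lf, Pirb and Cd300ld alike.

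Lilrb4a (ENSMUSG00000112148) went the other way. Its CPM was 216, 248 and 267 in the lowest, median and highest CON library, 30.6, 95.3 and 255 in SUS libraries and 70.4, 88.4 and 192 in RES libraries. The 6 RES libraries lay below all CON libraries, and 5 of 6 SUS libraries did, with library 17 inside the CON range at 255 CPM. The log2 fold change was -1.07 (standard error 0.33) in SUS and -1.13 (0.33) in RES mice. Both values lie close to the fold threshold, and the call was lost in SUS mice without any of the 6 CON libraries or SUS library 5, 8, 11 or 14, with log2 fold changes from -1.11 to -0.88 without them. In RES mice it was lost without any CON library, SUS library 2, 8 or 11 or RES library 6, 9, 15 or 18, with values from -1.19 to -1.03. RES libraries 9, 15 and 18 held the 3 lowest Lilrb4a values of their group, at 79.3, 86.3 and 70.4 CPM. The same 3 libraries held the highest RES sums of the neutrophil list (537 to 605 CPM, against 371 to 477 CPM in the other RES libraries) and of the Ly6C-high monocyte markers (9417 to 11030 CPM, against 6699 to 9175 CPM), whose part in these values was not tested.

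The other members differed by less than or about as much as their standard error. The log2 fold change of the inhibitory Cd300a was 0.01 (0.14) in SUS and 0.14 (0.14) in RES mice, the former with a sign that turned under other scalings, and that of the activating Cd300lb was 0.08 (0.14) and 0.15 (0.14). Cd300e (0.83 with a standard error of 1.25, and 0.85 with 1.26) and Lilra5 (-0.53 with 0.90, and -0.06 with 0.90) were at 0 to 58 and 2 to 91 counts per library, and no difference was detected at these low counts. Libraries of 2 groups did not overlap for 3 genes in SUS vs. CON mice (Cd300lf, Cd300ld and Pirb) and for 2 in RES vs. CON mice (Cd300ld and Lilrb4a), beside 7.04% and 4.49% of all genes tested. Scaled by library totals alone, 1 gene each did not overlap. The share of all genes was not computed for that scaling, so nothing is read from this count. Between SUS and RES mice, 0 of 8 genes passed with edgeR or DESeq2, and 0 had an unadjusted p under 0.05. Of all genes tested, 0% passed with edgeR and 0.0743% with DESeq2, and 3.66% had an unadjusted p under 0.05.

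**Figure D3:**
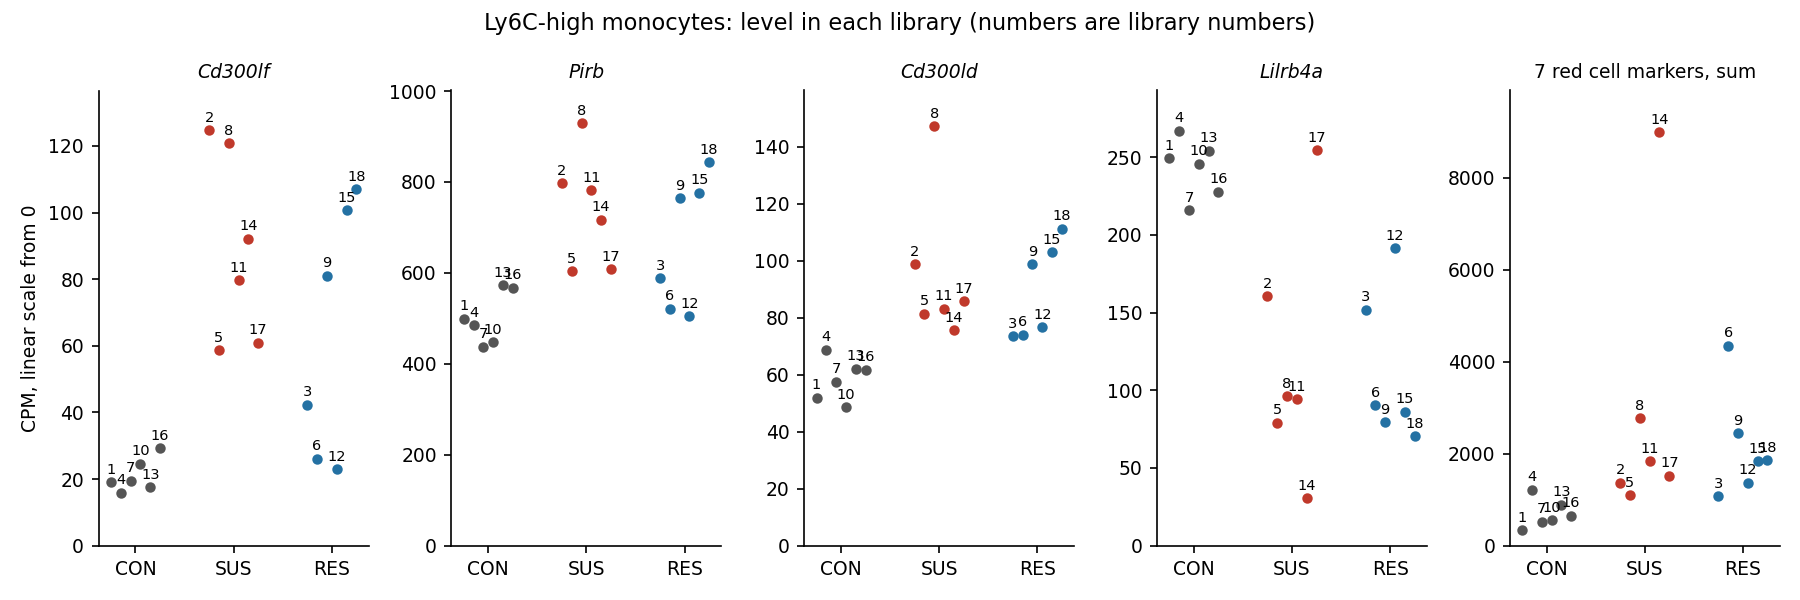
CPM of Cd300lf, Pirb, Cd300ld and Lilrb4a and the summed CPM of 7 red cell markers in each Ly6C-high monocyte library, on linear axes from 0, by stress group with the library number beside each point. RES libraries 9, 15 and 18 hold the highest Cd300lf, Pirb and Cd300ld and the lowest Lilrb4a of their group, and SUS library 14 has the lowest Lilrb4a (30.6 CPM) and the highest red cell sum (8996 CPM).

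Other marker genes moved with the stress groups in Ly6C-high monocytes. The sum of 7 red cell genes was 343 to 1216 CPM in CON, 1098 to 8996 CPM in SUS and 1077 to 4351 CPM in RES libraries. With the mean log2 CPM of these genes as a covariate, the log2 fold changes in SUS and RES mice were 1.90 and 1.45 for Cd300lf, 0.40 and 0.29 for Pirb, 0.56 and 0.51 for Cd300ld, and -0.18 and -0.25 for Lilrb4a. With SUS library 14 also left out, they were 1.88 and 1.41, 0.36 and 0.22, 0.40 and 0.27, and -0.34 and -0.54, in the same order of genes. The calls of Cd300lf and Lilrb4a were lost in both fits, and 1 gene of the whole table passed in SUS mice. The sum of the 6 Ly6C-high monocyte markers was 6589 to 7957 CPM in CON, 8877 to 13590 CPM in SUS and 6699 to 11030 CPM in RES libraries. The neutrophil list was at 364 to 537, 377 to 603 and 371 to 605 CPM, in the same order, nearly all of it Csf3r, a gene that monocytes express too. Ly6g and Stfa2l1 were at most 1.13 and 0.294 CPM. Beyond these fits, the part of these other signals in the differences of the 4 genes was not tested. In sorted populations, fewer cells that express a gene and less RNA per cell cannot be told apart.

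**Figure D4:**
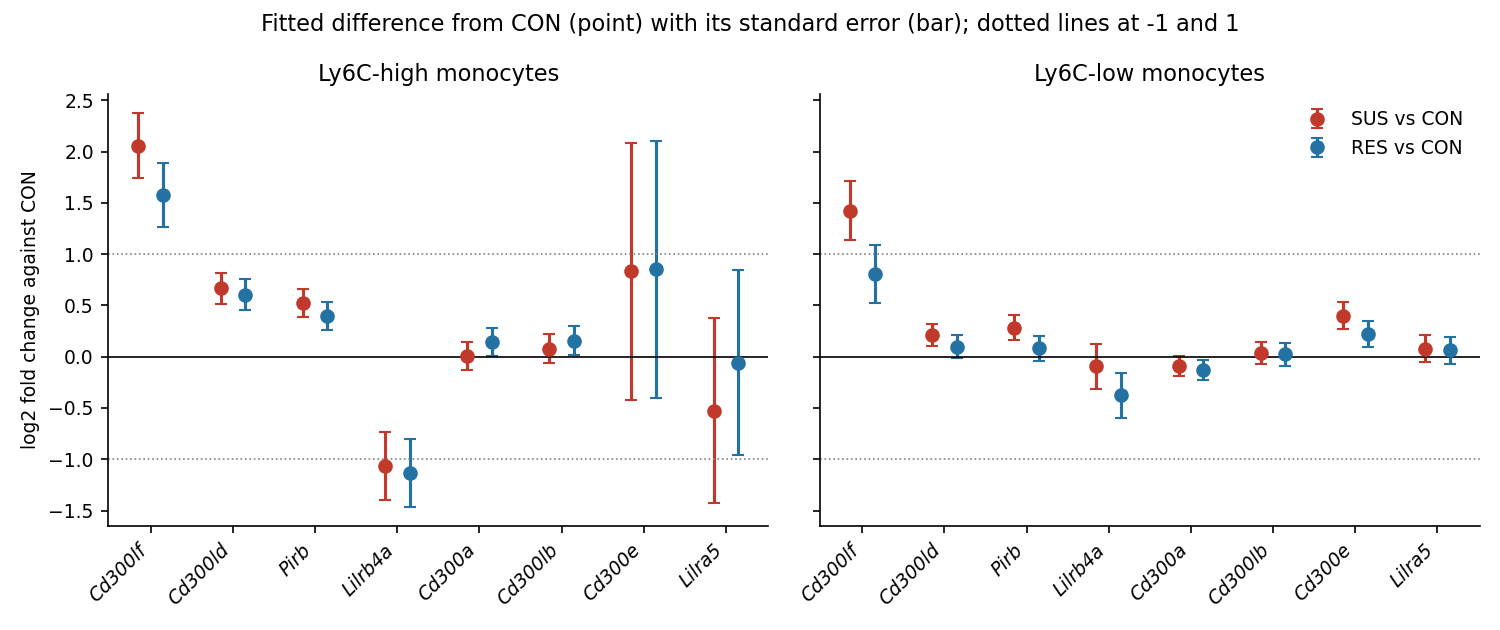
Fitted log2 fold change against CON (points) with its standard error (bars) for the 8 genes in Ly6C-high (left) and Ly6C-low (right) monocytes, for SUS (red) and RES (blue) mice, with dotted lines at -1 and 1. Cd300lf is the highest point of SUS mice in both panels, at 2.06 and 1.42, and Lilrb4a lies below -1 in Ly6C-high monocytes.

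Ly6C-low monocytes are separate libraries, although possibly of the same mice, and here the differences were tested. The genes were chosen with results of these data known, so these p-values are no independent support for the values in Ly6C-high monocytes. Cd300lf had the largest difference of the 8 genes and did not pass the threshold with edgeR. It was at 25.0, 26.6, 32.5 and 41.9 CPM in the 4 CON libraries, at 49.8, 85.3 and 127 CPM in the lowest, median and highest SUS library and at 30.7, 56.1 and 78.0 CPM in RES mice. Every SUS library lay above every CON library, and 5 of 6 RES libraries did. By the quasi-likelihood test of edgeR, the difference was 1.42 on the log2 scale (standard error 0.29, adjusted p = 0.058) in SUS and 0.81 (0.28, adjusted p = 0.344) in RES mice. Over the alternatives, the adjusted p for SUS vs. CON ranged from 7.77e-06 with DESeq2, which called the gene, to 0.490 with the red cell covariate (log2 fold change 1.26). With edgeR it also passed without SUS library 22 (1.54, adjusted p = 0.0208) or RES library 28 (1.42, adjusted p = 0.0236). The red cell sum in Ly6C-low monocytes was 295 to 1260 CPM in CON, 860.0 to 2699 CPM in SUS and 878 to 3921 CPM in RES libraries.

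The next largest values in Ly6C-low monocytes of SUS mice were those of Cd300e, Pirb and Cd300ld, all without passing. Cd300e was at 273, 278, 343 and 400 CPM in the CON libraries and at 308, 445 and 524 CPM in the lowest, median and highest SUS library, with 4 of 6 SUS libraries above all CON libraries. The fitted log2 fold change was 0.40 (0.13, adjusted p = 0.242). Pirb was at 229, 255, 263 and 271 CPM in CON libraries and at 240, 300 and 418 CPM in SUS mice (log2 fold change 0.28 ± 0.12, adjusted p = 0.438), with 5 of 6 SUS values above CON. Cd300ld had a log2 fold change of 0.21 (0.11, adjusted p = 0.559), with 5 of 6 SUS libraries above and 1 below all CON libraries. Lilrb4a was at 88.5, 98.2, 99.7 and 117 CPM in CON, 64.3, 87.4 and 138 CPM in SUS and 57.2, 80.2 and 95.4 CPM in RES mice. Its log2 fold change was -0.09 (0.22, adjusted p = 0.960) in SUS and -0.38 (0.22, adjusted p = 0.646) in RES mice. Cd300a, Cd300lb and Lilra5 had log2 fold changes of -0.09, 0.03 and 0.08 in SUS and -0.13, 0.02 and 0.06 in RES mice.

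Of the 8 genes, edgeR called 0 in SUS vs. CON mice, with 3 at an unadjusted p under 0.05 and 1 called by DESeq2, beside 0.0871% of 19521 genes called, 9.51% unadjusted and 0.35% of the genes DESeq2 tested. In RES vs. CON mice, 0 were called (1 unadjusted, 0 with DESeq2), beside 0.0154% of all genes (9.67% unadjusted), and in SUS vs. RES mice 0 (1 unadjusted, 0 with DESeq2), beside 0% (3.79% unadjusted). Libraries did not overlap for 1 gene, Cd300lf, in SUS and for 0 genes in RES vs. CON mice, beside 1.93% and 2.56% of all genes. The median log2 fold change of the 8 genes was 0.15 and 0.07, beside -0.01 and -0.01 over all genes. Whether the difference of any gene itself differed between the 2 monocyte types was not tested.

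In B cells, 4 of the 8 genes had enough counts to be tested, and edgeR called 0 of them in any comparison. Pirb, the one with a firm level, was at 26.6, 42.8 and 56.5 CPM in the lowest, median and highest CON library, at 37.0, 43.0 and 46.5 CPM in SUS mice and at 39.2, 44.8, 46.7, 48.9 and 50.3 CPM in the RES libraries. The groups overlapped, and edgeR gave a log2 fold change of 0.01 (0.14, adjusted p = 0.999) in SUS and 0.14 (0.15, adjusted p = 1.00) in RES mice. Cd300lf in B cells was at 0.0332 to 1.90 CPM in CON, 0.124 to 3.86 CPM in SUS and 0.944 to 3.31 CPM in RES mice, which overlapped. Its log2 fold change was 1.70 (0.78, adjusted p = 0.999) and 1.84 (0.81, adjusted p = 1.00). Cd300lb, at 0 to 52 counts per library, had the largest log2 fold change by edgeR, 3.18 (1.54, adjusted p = 0.999) in SUS and 2.64 (1.54) in RES mice. Cd300a, at 9 to 83 counts, had -0.49 (0.74) and 0.57 (0.76). The number of genes at an unadjusted p under 0.05 was 2 in SUS vs. CON (Cd300lf and Cd300lb), 1 in RES vs. CON (Cd300lf) and 0 in SUS vs. RES mice. DESeq2 called 0 in each. Of all 17620 genes, 0.00568%, 0% and 0% were called in these comparisons, and 3.42%, 3.18% and 1.36% had an unadjusted p under 0.05. The red cell sum in B cells was 1336 to 7887 CPM in CON, 3047 to 12820 CPM in SUS and 3462 to 9713 CPM in RES libraries.

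In T cells, 6 of the 8 genes were tested, 0 were called by edgeR in any comparison and 0 had an unadjusted p under 0.05. DESeq2 called 1 gene in SUS vs. CON mice, Lilra5, which had 0 counts in all SUS libraries and at most 170 counts in a CON library and was too low for the edgeR filter. DESeq2 called 0.234% of the genes it tested there. Of all 18860 genes, 0.0265% were called in SUS vs. CON mice, 0% in RES vs. CON and 0% in SUS vs. RES mice. The shares of these genes at an unadjusted p under 0.05 were 4.8%, 4.11% and 2.39%, in the same order. The monocyte receptors were unevenly spread over T cell libraries within every group. Cd300ld had 96 to 214 counts in the 7 libraries numbered 53 to 59 and 0 to 4 counts in the 10 libraries numbered 60 to 69. Pirb had 130 to 716 counts in libraries 53 to 58 and 2 to 66 counts in the others. The former set holds libraries of CON, SUS and RES mice, and the labels name no batch. Ace, a Ly6C-low monocyte marker, had 453 to 1033 counts in libraries 53 to 59 and 3 to 25 counts in libraries 60 to 69. The reason for this spread was not tested.

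The signalling partners and other receptors were taken from lists, with results of these data known. In Ly6C-high monocytes of SUS mice, 26.5% of all genes had an unadjusted p under 0.05 and 12.6% an adjusted p under 0.05, so the counts of the lists there are read beside these shares. Of 15 adaptors and signalling enzymes, 0 passed both thresholds in Ly6C-high monocytes of SUS mice with edgeR or DESeq2, with 9 at an unadjusted p under 0.05, 4 at an adjusted p under 0.05 and a median log2 fold change of 0.24. The 2 with the highest level were Syk, the kinase of the activating members, at 759 CPM in CON and 911 CPM in SUS mice (log2 fold change 0.23, standard error 0.14), and Ptpn6, the phosphatase SHP-1, at 692 and 931 CPM (0.40, 0.14). The adaptors themselves, named after their values were seen, were at 384 and 660 CPM for Tyrobp (0.76, 0.18) and at 420 and 732 CPM for Fcer1g (0.77, 0.17). In Ly6C-low monocytes they were at 241 and 305 CPM for Tyrobp (0.34, adjusted p = 0.110) and at 387 and 515 CPM for Fcer1g (0.41, adjusted p = 0.168). CON and SUS libraries did not overlap for either, beside 1.93% of all genes. As both were named with their values known, nothing is read from this. In Ly6C-low monocytes of SUS mice, 0 of 15 passed with edgeR or DESeq2, and 5 had an unadjusted p under 0.05, beside 9.51% of all genes. Fgr and Ptpn6, the highest in level there, had log2 fold changes of 0.06 (adjusted p = 0.934) and 0.23 (adjusted p = 0.411) in SUS mice.

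Among other receptors of myeloid cells, several were called. Of 32 other paired and inhibitory myeloid receptors tested in Ly6C-high monocytes, 7 were called higher and 0 lower in SUS mice, with a median of 0.30 (DESeq2 called 7), beside 3.45% of all genes, 387 higher and 198 lower (296 and 244 with the size factors of DESeq2, and 387 and 427 with DESeq2 itself). With the red cell covariate 0 of the 32 were called. The largest were Tarm1, an activating receptor encoded near the Lilr genes, with a log2 fold change of 2.19 (standard error 0.54), Siglece, an inhibitory receptor for sialic acid (1.39, 0.25), Treml2 (1.32, 0.36) and Clec4e, the Fc receptor gamma chain-coupled receptor Mincle (1.28, 0.28). In RES mice 0 of 32 were called with edgeR or DESeq2 (11 unadjusted, beside 21.2% of all genes). These 4 genes had log2 fold changes of 1.25, 0.86, 0.78 and 0.60 there. In Ly6C-low monocytes edgeR called 0 of 32 in SUS mice (13 unadjusted, 0 with DESeq2) and 0 in RES mice (10 unadjusted, 1 with DESeq2, Cd33, named after its values were seen). Of all genes there, 9.51% in SUS and 9.67% in RES mice had an unadjusted p under 0.05. DESeq2 called 0.35% and 0.0578% of the genes it tested. There the highest in level, Sirpa and Ceacam1, had log2 fold changes of -0.04 (adjusted p = 0.970) and 0.31 (adjusted p = 0.247) in SUS mice.

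Among 18 further CD300 and Lilr family genes listed, 11 were in the table and 9 were tested in Ly6C-high monocytes, with 0 called in SUS mice by edgeR or DESeq2, 3 at an unadjusted p under 0.05, 1 at an adjusted p under 0.05 and a median of 0.25. Lilra6, an activating receptor that shares 31.29% of its 50-base stretches with other genes, was at 102 CPM in CON and 70.0 CPM in SUS mice (log2 fold change -0.58, standard error 0.15). Lilr4b, the neighbour of Lilrb4a on chromosome 10, was at 77.3 and 78.2 CPM (-0.02, 0.25). In Ly6C-low monocytes 0 of 11 were called in SUS mice (1 unadjusted, beside 9.51% of all genes, and 0 with DESeq2). Cd300c2 and Lilr4b had log2 fold changes of 0.06 (adjusted p = 0.941) and 0.51 (adjusted p = 0.787) there. Of 11 genes for ligands of Pirb and Lilrb4a, 0 passed both thresholds with edgeR or DESeq2 in SUS mice in either monocyte type. At an unadjusted p under 0.05 there were 4 in Ly6C-high and 1 in Ly6C-low monocytes, beside 26.5% and 9.51% of all genes. Fn1, fibronectin, was at 10760 CPM in CON and 12160 CPM in SUS Ly6C-high monocytes (log2 fold change 0.13, standard error 0.22), and H2-D1, a class I heavy chain, at 1470 and 2110 CPM (0.49, 0.15). In Ly6C-low monocytes, H2-D1 had a log2 fold change of 0.31 (adjusted p = 0.258) and Apoe, a ligand described for LILRB4, one of 0.03 (adjusted p = 0.992). In every other comparison of these 4 lists, B and T cells included, edgeR called 0 genes, with 0 to 8 of a list at an unadjusted p under 0.05 and 0 called by DESeq2. Of all genes, 1.36% to 21.2% had an unadjusted p under 0.05 in these comparisons. The highest share was in Ly6C-high RES vs. CON mice, where 8 of 15 adaptors and enzymes did.

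**Figure D5:**
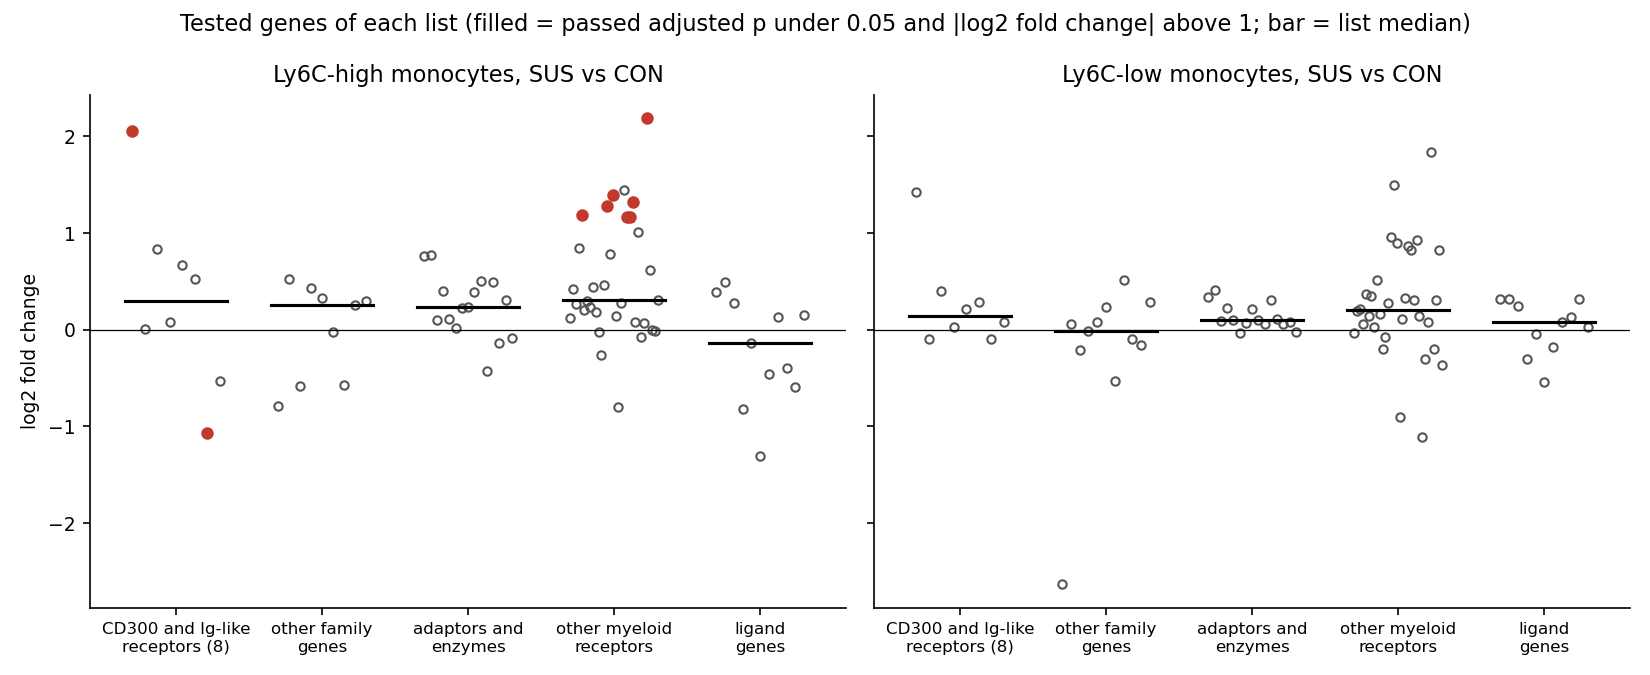
Log2 fold change of SUS against CON for every tested gene of each list in Ly6C-high (left) and Ly6C-low (right) monocytes, with filled points past both thresholds and bars at the list medians. Filled points are Cd300lf and Lilrb4a among the 8 receptors and 7 higher genes among the other myeloid receptors, and none in Ly6C-low monocytes.

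The genes whose levels ran most like each member were found over the 12 means of cell type and stress group, by Pearson's r of log2(CPM + 0.5) among 10408 genes. These means share no libraries but may share mice, which the labels do not name. They are set mainly by the contrast of monocytes with lymphocytes, so high values are common. Cd300a ran closest to Asph (0.998), Csf1r, the receptor for M-CSF (0.998), and Slc8a1 (0.998), and Cd300lb to Lrp1 (0.999), Naip2 (0.999) and Sirpb1b (0.999). Cd300e ran closest to Adrb1 (0.994), the beta-1 adrenergic receptor, G730013B05Rik (0.993) and Eno3 (0.991), and Lilra5 to Zdhhc6 (0.991), the family member Cd300ld4 (0.990) and Gm16120 (0.990). Cd300lf was nearest to Prr13 (0.990), Nmt1 (0.987) and Grina (0.985), Cd300ld to Nfe2l2 (0.997), Tiam2 (0.995) and A130077B15Rik (0.995), Pirb to Tpd52 (0.997), Slc15a3 (0.996) and Rassf4 (0.996), and Lilrb4a to Gm38377 (0.996), Nin (0.996) and Lilr4b (0.995). Among the 8 genes, r was highest for Cd300a and Cd300lb (0.996) and lowest for Cd300e and Pirb (0.355). Cd300e and Pirb had opposite orders between the monocyte types, and Pirb was also at 43.1 CPM in B cells.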

How the data were processed

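RNA was measured in 70 libraries of sorted mouse blood leukocytes. The authors made paired-end libraries with a stranded total RNA kit, mapped reads to mm10 with HISAT2 and counted them on Ensembl genes with htseq-count, and deposited raw counts per gene without normalization. Strand and overlap options are not given in the sources used here. Libraries 52 and 70 were left out. Each cell type was fitted on its own with its 3 groups in edgeR (version 4.0.16, with limma version 3.58.1, under R version 4.3.3), using filterByExpr, TMM and the robust quasi-likelihood F test, with Benjamini-Hochberg adjustment over all genes tested. Standard errors were obtained by dividing the size of the log2 fold change by the root of F. A call needed both an adjusted p below 0.05 and a log2 fold change beyond 1 in either direction. Levels are CPM with TMM over the 68 libraries. Where nothing says that libraries came from separate mice, p-values measure the spread between libraries. As no molecular identifiers were counted, limits for a count of 0 cover counting error only.

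The members and gene lists were chosen with earlier results of these data known. All members are named, along with, of each other list, the called genes (at most 4 by fold change) or else the 2 with the highest level in that cell type. Alternatives were DESeq2 (version 1.42.0), its size factors in edgeR, no low-count filter, 2 groups in the fit, each library left out, libraries 52 and 70 kept, red cell or neutrophil covariates, the adjusted p alone, and levels without TMM. Leaving out library 14 with the red cell covariate, other scalings for overlap, and the promoter motif were chosen after seeing the data. The test was checked on simulated data.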

Additional observations from a re-analysis of the deposited data

Results flagged for a closer look

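Groups of 4 to 6 libraries were checked for each gene with a mean of at least 10 CPM. In 6 of 45 combinations of gene and group, the gap of 1 library to its nearest neighbour took an unusually large share of the range. Chance gives about 1 in 20 for a single combination. The 45 combinations share libraries, so no excess is read from this count. In Ly6C-high monocytes, Cd300a was at 277 CPM in CON library 1, with the next library at 373 CPM, and at 305 CPM in RES library 3, with the next at 409 CPM. In Ly6C-low monocytes, Cd300a was at 528 CPM in SUS library 33, above the next at 446 CPM. Cd300ld was at 147 CPM in Ly6C-high SUS library 8, above the next at 98.8 CPM, and at 395 CPM in Ly6C-low SUS library 22, below the next at 552 CPM. Lilra5 was at 113 CPM in Ly6C-low SUS library 19, above the next at 93.0 CPM.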

How the results depend on the processing

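Counts were low for Cd300e and Lilra5 in Ly6C-high monocytes and for most members in lymphocytes. In Ly6C-high monocytes, the count of members called against CON mice changed from 2 to 4 in SUS mice with the adjusted p alone, where 12.6% of all genes passed. Without the low-count filter it was 1 in SUS and 1 in RES mice, beside 1.7% and 0.435% of all genes. With the red cell covariate, with or without library 14, it was 0 in both, where 1 gene of the table passed in SUS and 0 in RES mice. Leaving out 1 library gave 1 to 2 in either comparison. Of all genes, 286 to 893 were then called in SUS and 29 to 365 in RES mice. In Ly6C-low SUS vs. CON mice, leaving out 1 library gave 0 to 1, beside 0.0871% of all genes with every library kept. DESeq2 called 1 member in SUS vs. CON mice in Ly6C-low monocytes and 1 in T cells, beside 0.35% and 0.234% of the genes it tested. The cause was not tested. The log2 fold change of Cd300a in Ly6C-high SUS vs. CON mice turned to -0.0562 with DESeq2, -0.0552 with its size factors (which moved the median of all genes to -0.11), -0.0010 without the filter, -0.0057 with 2 groups, -0.239 with the red cell covariate, -0.1661 when library 14 was also left out, and -0.0301 with the neutrophil covariate, and in RES mice to -0.0709 with the red cell covariate. Lilra5 in Ly6C-high RES vs. CON mice turned to 0.0482 with the neutrophil covariate, and Pirb in B cells of RES vs. CON mice to -0.1192 with libraries 52 and 70 kept. Without 1 library, signs turned within -0.1053 to 0.0864 for Cd300a in Ly6C-high SUS vs. CON mice, -0.3559 to 0.2933 for Lilra5 in RES vs. CON and -0.3039 to 0.2846 for Lilrb4a in SUS vs. RES mice. In Ly6C-low monocytes they did within -0.0329 to 0.0871 (SUS) and -0.0399 to 0.0767 (RES) for Cd300lb, -0.2331 to 0.0034 for Lilrb4a (SUS), and -0.0222 to 0.1498 (SUS) and -0.0368 to 0.1375 (RES) for Lilra5, and in B cells within -0.0881 to 0.1179 for Pirb (SUS). No paired analysis was possible because the labels give no replicate number shared between groups.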
